A study of Mus musculus with 6 samples.

Results

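The genes followed here are 8 subunits of the voltage-gated sodium channel in mouse retinal ganglion cells (RGCs), the neurons whose axons form the optic nerve. They were chosen by gene symbol, as the rows for the pore-forming subunits Scn1a, Scn2a1 (now Scn2a), Scn3a, Scn8a and Scn9a and the auxiliary subunits Scn2b, Scn3b and Scn4b, and all 8 were found among the 24060 genes of the count table. RNA was sequenced from RGCs of C57BL/6 mice at embryonic day 18 (E18; 3 samples, replicates 1, 3 and 4) and at postnatal day 5 (P5; 3 samples, replicates 6, 8 and 9), and no treatment or genetic change is named for either age. The cells were taken from papain-dissociated retinas, cleared of macrophages, and held on dishes by antibodies against CD90 (Thy1). The study compared the ages because RGCs grow axons vigorously before birth and lose this capacity soon after. Whether the samples came from separate litters is not stated, so the p-values measure the spread between these samples. E18 replicate 1 is headed 1, 2 and 5 in the count table, with nothing said of pooling.

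A sodium channel is a large pore-forming alpha subunit, which opens on depolarization, starts the action potential and inactivates, joined by smaller auxiliary beta subunits that alter its gating and its placing in the membrane. The channels are packed at the axon initial segment and the nodes of Ranvier, where the scaffold protein ankyrin-G holds them. In RGCs they carry the spikes that pass from the eye to the brain. Neurons are known to change the mix of alpha subunits as they mature, and the gene-level counts used here do not separate the neonatal and adult splice forms that several of these genes make.

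The samples held 81213639 to 114512853 reads assigned to genes. Of 12 RGC marker genes, 4 were lower and 2 higher at E18 by edgeR, against 22.5% and 20.8% of all genes tested. Their summed level was 6540 to 7460 CPM (counts scaled to a common library size by TMM normalization) at E18 and 7480 to 8760 at P5. Nefl was the largest part of it, at 1815 ± 277 and 2914 ± 550 CPM. Nefl, Thy1, Slc17a6 and Pou4f3 were the 4 lower, and Isl1 and Sncg the 2 higher. The E18 samples differed in the genes of other cells. The 8 dividing-cell genes summed to 198, 49.9 and 11.4 CPM in E18 replicates 1, 3 and 4 and to 7.43 to 17.8 at P5, with 5 higher at E18. The 8 progenitor genes summed to 279, 124 and 24.0 CPM and to 15.7 to 19.9, with 5 higher. The 9 amacrine genes summed to 637 to 950 CPM at E18 and 527 to 652 at P5, with 4 higher. Most of this sum was Pax6, at 622 to 751 and 498 to 629 CPM, which was not called. The 4 were Tfap2a, Tfap2b, Chat and Slc32a1, each highest in E18 replicate 3. Tfap2b had 47.5, 119 and 1.6 CPM in E18 replicates 1, 3 and 4 and 1.0 to 1.6 at P5. Glial genes (Müller cells and astrocytes) summed to 322 to 354 CPM at E18 and 241 to 284 at P5, with Gfap and Aqp4 under 1 CPM throughout. Glul made up most of this sum, at 313 to 326 and 230 to 273 CPM. Slc1a3 had 16.2, 2.80 and 0.475 CPM in E18 replicates 1, 3 and 4 and 1.11 to 1.78 at P5. Bipolar, photoreceptor, oligodendrocyte, microglial and endothelial sums stayed at or below 97.4 CPM, with Grm6, Rcvrn, Olig1, Cx3cr1 and Cldn5 under 1 CPM in every sample. Their part in the results was not tested. Means below are given ± SD over the 3 samples of an age (n = 3).

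Of the 8 subunits, 6 were lower at E18 and 1, Scn9a, was higher, while Scn3b did not pass the test. Adjusted p-values of genes are from edgeR's quasi-likelihood fit with Benjamini-Hochberg adjustment over the 16449 genes tested, and the threshold was 0.05. All 8 had enough reads to be tested. Over all genes tested, 43.4% were called, 22.5% as lower and 20.8% as higher at E18. By 2-fold or more, 4 subunits (Scn1a, Scn2a1, Scn2b and Scn4b) were lower and none was higher, against 9.53% and 6.39% of all genes. The values of the ages did not overlap for 7 of the 8, against 56.1% of all genes. The median log2 fold change of the subunits, E18 over P5, was -0.97, and that of all genes tested was 0.0047. In RNA from a whole preparation, fewer cells that carry a transcript and less of it per cell cannot be told apart.

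**Figure D1:**
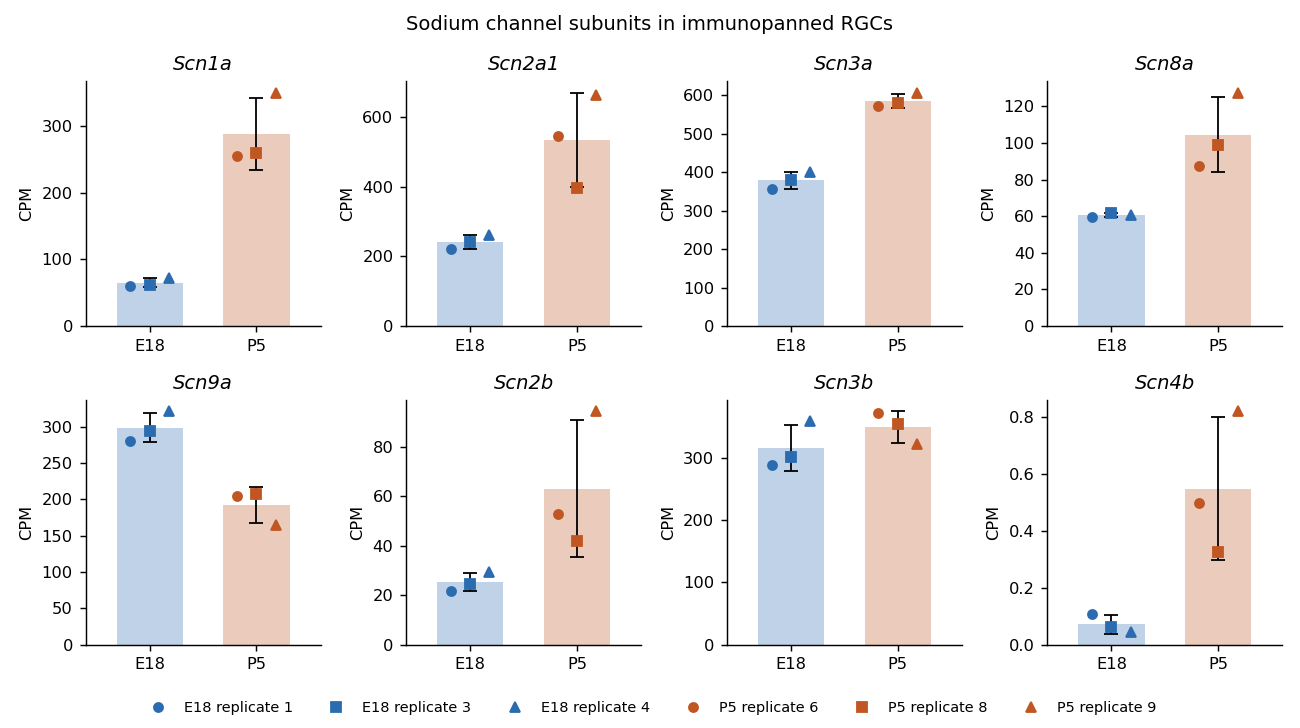
CPM of each subunit in every sample, with E18 in blue and P5 in orange. Bars give the mean, whiskers the SD (n = 3), points the samples, and each panel has its own axis from 0. Scn1a rises from 60.5 to 72.8 CPM at E18 to 255 to 350 at P5, Scn9a goes the other way, and the Scn3b points of the ages overlap.

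Among the pore subunits, Scn1a, which encodes Nav1.1, a channel known best from fast-firing neurons, had the lowest log2 fold change. Its level was 60.5, 61.0 and 72.8 CPM in E18 replicates 1, 3 and 4 and 255, 259 and 350 CPM in P5 replicates 6, 8 and 9. Every P5 sample stood above every E18 sample, with P5 replicate 9 highest. The E18 mean of 64.8 ± 6.94 CPM was exceeded 4.45-fold at P5 (288 ± 53.8), and the log2 fold change of E18 over P5 was -2.15 ± 0.146 (standard error), with an adjusted p of 8.88e-05.

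Scn2a1 encodes Nav1.2, the channel of unmyelinated axons and of immature initial segments. It had 221, 240 and 262 CPM in E18 replicates 1, 3 and 4 and 545, 396 and 665 CPM in P5 replicates 6, 8 and 9. The ages did not overlap, although the P5 samples were 1.68-fold apart. Its log2 fold change was -1.15 ± 0.172 (standard error), with an adjusted p of 0.00139, a 2.22-fold higher level at P5.

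Scn3a encodes Nav1.3, a channel known as an embryonic and early postnatal form in the rodent brain. In these cells it was higher at P5, with 356, 381 and 401 CPM in E18 replicates 1, 3 and 4 and 572, 579 and 607 CPM in P5 replicates 6, 8 and 9. The samples of each age lay close together, and the gap between the ages was larger than the spread within either. The difference was 1.55-fold (log2 fold change -0.63 ± 0.0829, standard error), with an adjusted p of 0.000853.

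Scn8a, the gene of Nav1.6, the main channel of mature nodes of Ranvier, had the lowest level per kilobase of the pore subunits. Its values were 59.6, 61.6 and 60.7 CPM at E18 (replicates 1, 3 and 4) and 87.5, 98.7 and 127 CPM at P5 (replicates 6, 8 and 9). The E18 samples were almost level, and all P5 samples stood above them. P5 was 1.72-fold higher (log2 fold change -0.78 ± 0.135, standard error), with an adjusted p of 0.00250.

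Scn9a, which encodes Nav1.7, a channel known best from sensory neurons of pain, was the only subunit higher at E18. It reached 281, 295 and 322 CPM in E18 replicates 1, 3 and 4 and 205, 208 and 164 CPM in P5 replicates 6, 8 and 9. No P5 sample reached the lowest E18 sample. Its means were 299 ± 20.7 CPM and 192 ± 24.5 CPM, 1.56-fold apart (log2 fold change 0.64 ± 0.112, standard error), with an adjusted p of 0.00277.

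Among the auxiliary subunits, Scn2b encodes the beta-2 subunit, which is bonded covalently to the pore subunit and helps bring channels to the cell surface. Its level was 21.9, 24.6 and 29.4 CPM in E18 replicates 1, 3 and 4 and 53.0, 42.1 and 94.6 CPM in P5 replicates 6, 8 and 9. The ages did not overlap, but P5 replicate 9 stood 2.24-fold above P5 replicate 8. The log2 fold change was -1.32 ± 0.271 (standard error), with an adjusted p of 0.00536, and it was -0.91 without P5 replicate 9 (adjusted p = 0.00502).

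Scn3b, the gene of the beta-3 subunit, which is not bonded covalently to the pore, had 289, 302 and 359 CPM in E18 replicates 1, 3 and 4 and 373, 355 and 323 CPM in P5 replicates 6, 8 and 9. E18 replicate 4 lay within the P5 range. The log2 fold change of -0.15 did not pass (adjusted p = 0.296), and its 95% confidence interval of -0.39 to 0.10 includes 0.

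Scn4b encodes the beta-4 subunit, known for its part in the resurgent current of fast-firing neurons. It was close to undetected at E18, with 9, 7 and 4 reads in replicates 1, 3 and 4, against 44, 32 and 77 reads in P5 replicates 6, 8 and 9. All P5 samples exceeded all E18 samples, yet the highest of them held only 0.819 CPM. The log2 fold change of -2.93 had the widest standard error of the 8 subunits (0.498, adjusted p = 0.00239), with a 95% confidence interval of -4.06 to -1.80.

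**Figure D2:**
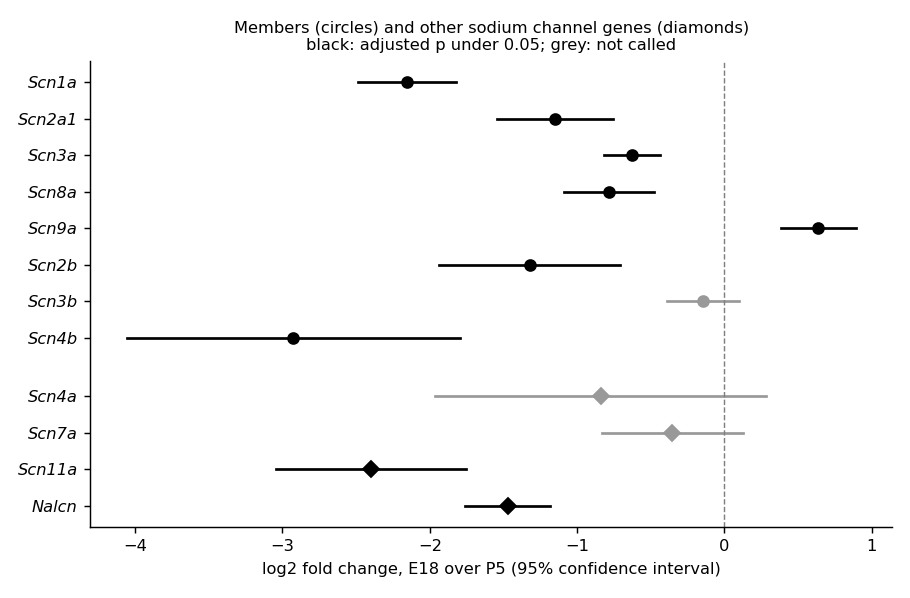
Log2 fold change of E18 over P5 with its 95% confidence interval for the 8 subunits (circles) and the 4 further sodium channel genes tested (diamonds). Black marks an adjusted p under the threshold of 0.05 and grey one above it. Scn9a lies to the right of 0, the intervals of Scn3b, Scn4a and Scn7a cross it, and Scn4b and Scn11a lie farthest to the left.

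P5 replicate 9 was the P5 sample farthest from the E18 mean in each of the 7 subunits that were called, above the other P5 samples in 6 and below them in Scn9a. The same held for 62.5% of all genes called between the ages. Thy1, the surface protein used to hold the cells, was also highest there, at 690 CPM against 499 and 469 in P5 replicates 6 and 8. Thy1 was itself lower at E18, at 247 ± 56.2 against 553 ± 120 CPM (edgeR adjusted p = 0.00197). Among the other RGC markers, Nefl, Nefm and Slc17a6 were likewise highest in P5 replicate 9. Rbpms, Pou4f1, Pou4f2, Isl1, Stmn2 and Ebf3 were lowest there of the P5 samples. The same 7 subunits were called without P5 replicate 9, with log2 fold changes of -1.99 for Scn1a, -0.96 for Scn2a1, -0.60 for Scn3a, -0.62 for Scn8a, 0.53 for Scn9a and -2.51 for Scn4b. They were called as well without E18 replicate 1, the sample with most dividing-cell and progenitor RNA. Log2 fold changes were then -2.10, -1.09, -0.58, -0.77, 0.69 and -3.31 in the same order and -1.22 for Scn2b. Over all genes, 5384 of 16683 tested were called without P5 replicate 9 and 5110 of 16741 without E18 replicate 1. E18 replicate 1 was the E18 sample farthest from the P5 mean in 5 of the 7 called subunits and replicate 4 in the other 2, against 34.6% and 23.6% of all genes called. E18 replicate 4 had a dividing-cell sum within the P5 range and a progenitor sum of 24.0 CPM, above the P5 range of 15.7 to 19.9. Its place outside the P5 range in the 7 called subunits only repeats that the ages did not overlap. The same lack of overlap held for 56.1% of all genes tested. The part of progenitor and dividing cells in these differences was not tested.

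Levels of different genes were compared as CPM per kilobase of exon, which corrects for gene length. At E18 the order among the pore subunits was Scn3a (30.4 ± 1.79), Scn9a (23.4 ± 1.62), Scn2a1 (19.0 ± 1.61), Scn1a (5.81 ± 0.622) and Scn8a (3.85 ± 0.0620), and no neighbours in this order overlapped. At P5 it was Scn3a (47.0 ± 1.46), Scn2a1 (42.0 ± 10.6), Scn1a (25.8 ± 4.83), Scn9a (15.1 ± 1.92) and Scn8a (6.63 ± 1.31). Scn3a and Scn2a1 overlapped at P5, as did Scn2a1 and Scn1a. Scn9a thus passed from the second to the fourth place. Of the auxiliary subunits, Scn3b was highest at both ages, at 58.0 ± 6.86 and 64.2 ± 4.65 CPM per kilobase, above every pore subunit. Scn2b had 5.43 ± 0.815 and 13.6 ± 5.94. It overlapped Scn1a at E18 and Scn9a at P5.

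The sum of the 5 pore subunits was 77.2, 81.9 and 88.3 CPM per kilobase in E18 replicates 1, 3 and 4 and 133, 123 and 153 in P5 replicates 6, 8 and 9. The P5 mean was 1.66-fold that of E18, and the ages did not overlap (exact two-sided permutation test, p = 0.1, the smallest value that 3 samples against 3 allow). None of the tests on shares and ratios that follow can go lower.

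The share of each subunit in this sum was then compared. Scn1a made up 7.03%, 6.68% and 7.39% of it in E18 replicates 1, 3 and 4 and 17.2%, 18.8% and 20.5% in P5 replicates 6, 8 and 9. Scn9a held 28.5%, 28.2% and 28.5% at E18 and 12.1%, 13.2% and 8.38% at P5. Neither gene overlapped between the ages, and the mean share of Scn1a was lower at E18 by 11.8 points, whereas that of Scn9a was higher by 17.2 points (exact permutation p = 0.1, 0.167 after adjustment over the 5 genes, for each). The share of Scn2a1 was 22.5% to 23.3% at E18 and 25.2% to 34.1% at P5, with the same p-values from the exact permutation test. Scn3a held 36.4% to 37.3% at E18 and 31.8% to 37.7% at P5 (exact permutation p = 0.4), although its own level was higher at P5. Scn8a took 4.36% to 4.90% and 4.16% to 5.27% (exact permutation p = 0.7), and these ranges overlapped.

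**Figure D3:**
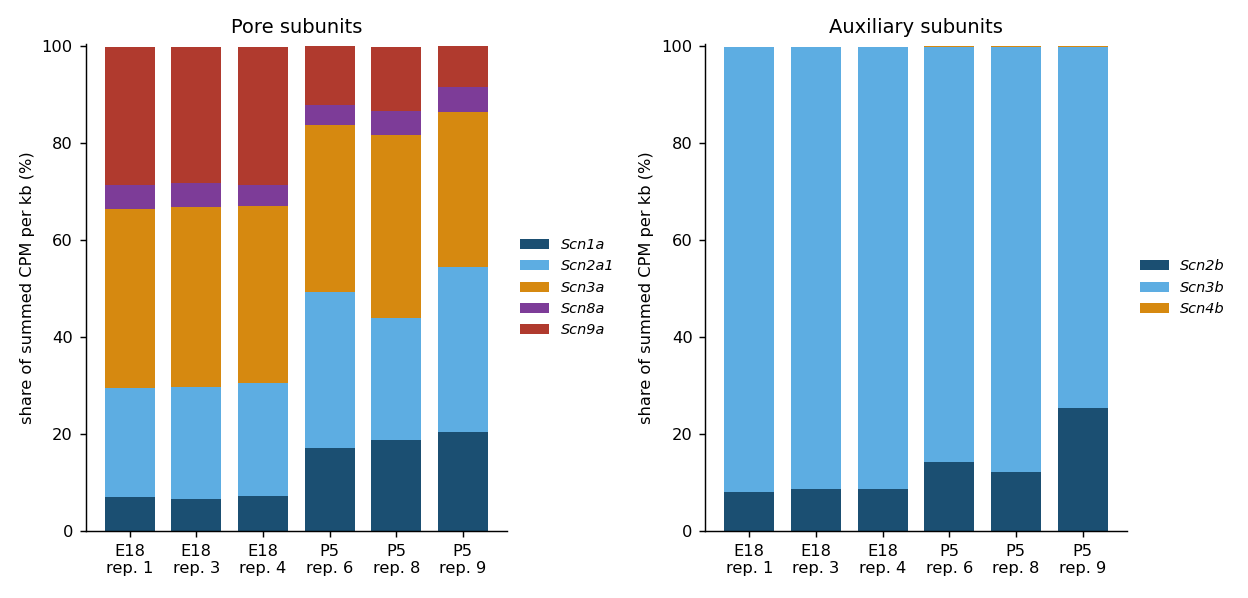
Share of each subunit in the summed level (CPM per kilobase of exon, in percent) of the 5 pore subunits (left) and of the 3 auxiliary subunits (right), 1 bar per sample. At left the Scn9a segment is 28.2% to 28.5% in the E18 samples and 8.38% to 13.2% at P5 while that of Scn1a is wider at P5, and at right Scn3b has its smallest share, 74.3%, in P5 replicate 9.

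The same shares were taken among Scn2b, Scn3b and Scn4b, the auxiliary subunits followed here. Scn3b held 91.2% to 91.8% of their sum at E18 and 85.6%, 87.7% and 74.3% in P5 replicates 6, 8 and 9. Scn2b held 8.14% to 8.74% and 14.3%, 12.2% and 25.5%. Scn4b held 0.0123% to 0.0378% and 0.0880% to 0.206%. None of the 3 overlapped between the ages (exact permutation p = 0.1, 0.1 after adjustment over the 3 genes, for each). As Scn4b held so little of the sum, the shares of Scn2b and Scn3b mirror each other and are not separate results. The level of Scn3b itself did not pass the test, and those of Scn2b and Scn4b were higher at P5. Without P5 replicate 9, the share of Scn3b differed by 4.77 points in place of 8.89 and that of Scn2b by -4.69 points in place of -8.78. The sum of the 3 was 63.4 ± 7.65 CPM per kilobase at E18 and 77.9 ± 3.27 at P5, 1.23-fold higher (exact permutation p = 0.1).

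Pairs of subunits known as earlier and later forms were set side by side as per-kilobase ratios. Scn1a to Scn3a was 0.190, 0.179 and 0.203 in E18 replicates 1, 3 and 4 and 0.498, 0.499 and 0.645 in P5 replicates 6, 8 and 9. The ages did not overlap, and the mean log2 ratio was lower at E18 by 1.51 (from -2.39 ± 0.0908 to -0.88 ± 0.214, exact permutation p = 0.1, adjusted p = 0.2 over the 2 pairs). Scn8a to Scn2a1 was 0.217, 0.207 and 0.187 at E18 and 0.130, 0.201 and 0.155 at P5. These ranges overlapped, and the exact permutation p was 0.2.

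The pore subunit genes followed here, except Scn8a, lie on mouse chromosome 2, with 503330 bases between Scn2a1 and Scn1a. In the GENCODE M21 annotation of mm10, Scn3a (65457118 to 65567627, minus strand), Scn2a1 (65620771 to 65767447, plus strand), Scn1a (66270778 to 66440840, minus strand) and Scn9a (66480080 to 66634962, minus strand) follow each other, and Scn8a lies apart on chromosome 15 (100869858 to 101045938, plus strand). Scn1a and Scn9a, which differed between the ages in opposite directions, are separated by only 39239 bases. On chromosome 9, Scn2b (45117782 to 45130070) and Scn4b (45138395 to 45154152) are 8324 bases apart on the plus strand, and both were lower at E18, whereas Scn3b (40269217 to 40291618, plus strand) lies 4826163 bases away. An antisense RNA, Gm13629, shares 180 exon bases with Scn9a, which is 1.41% of its exon length, and without a stated strand setting such reads cannot be assigned.

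The start regions of these pairs are shown because the first pair, side by side on a chromosome, differed in direction and the second shared it. They run from 250 bases before the transcription start to 50 after it, are taken from RefSeq on GRCm38.p6 and are written 5′ to 3′ on the gene's strand, with CG pairs in capitals. Scn1a (chr2:66440788-66441087, minus strand) and Scn9a (chr2:66634913-66635212, minus strand) are the neighbours on chromosome 2, and Scn2b (chr9:45117626-45117925, plus strand) and Scn4b (chr9:45138374-45138673, plus strand) those on chromosome 9.
Scn1a: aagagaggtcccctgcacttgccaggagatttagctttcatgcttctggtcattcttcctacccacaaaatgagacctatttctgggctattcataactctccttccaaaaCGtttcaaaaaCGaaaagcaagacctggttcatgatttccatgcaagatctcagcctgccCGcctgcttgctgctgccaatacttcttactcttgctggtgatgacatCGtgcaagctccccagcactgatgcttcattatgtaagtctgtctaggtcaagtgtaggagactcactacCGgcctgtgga
Scn9a: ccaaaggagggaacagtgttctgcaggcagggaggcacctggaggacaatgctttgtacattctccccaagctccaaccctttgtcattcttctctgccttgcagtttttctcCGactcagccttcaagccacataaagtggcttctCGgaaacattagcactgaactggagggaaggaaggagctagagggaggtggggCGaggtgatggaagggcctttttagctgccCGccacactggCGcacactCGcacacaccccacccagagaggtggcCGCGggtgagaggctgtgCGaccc
Scn2b: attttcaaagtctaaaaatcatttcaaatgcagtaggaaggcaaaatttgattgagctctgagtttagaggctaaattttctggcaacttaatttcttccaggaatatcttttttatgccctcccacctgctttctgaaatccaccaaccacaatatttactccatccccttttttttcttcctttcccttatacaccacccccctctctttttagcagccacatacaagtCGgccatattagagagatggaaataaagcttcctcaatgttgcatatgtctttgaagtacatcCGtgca
Scn4b: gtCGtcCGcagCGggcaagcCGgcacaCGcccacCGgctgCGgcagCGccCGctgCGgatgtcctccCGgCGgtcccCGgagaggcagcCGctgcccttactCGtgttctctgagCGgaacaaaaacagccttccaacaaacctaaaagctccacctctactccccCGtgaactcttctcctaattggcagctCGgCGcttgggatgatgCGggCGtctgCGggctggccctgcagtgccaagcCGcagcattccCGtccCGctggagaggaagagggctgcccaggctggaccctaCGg

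Scn2b holds 2 CG pairs in these 300 bases and Scn4b 26, against a median of 7 over 32851 promoters of this length. Scn1a holds 5 and Scn9a 9. The bases G and C make up 38.3% of the Scn2b region, 66.3% of that of Scn4b, 47.3% of that of Scn1a and 57.3% of that of Scn9a, with a median of 52.7% over all promoters. The first start site of Scn8a was the richest in CG pairs, with 38 and a G and C content of 70.0%. Promoters were found for 6 of the 8 genes, with Scn3a and Scn3b not matched. None of them held TCAGCACC, the left part of the RE1 site bound by the repressor REST, or GGGCGG, the GC box, on either strand, and 1.65% and 35.7% of all promoters did. TATAAA, held by 13.6% of all promoters on either strand, was found once, 84 bases before the second start site of Scn2a1. These matches are of letters only, and the search covered only the 300 bases at each start site. Sites elsewhere in or near these genes were not looked for. As only 1.65% of all promoters held TCAGCACC, its absence from the promoters of 6 genes does not set them apart.

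Among 5 further sodium channel genes, 2 were lower at E18 (Scn11a and Nalcn), Scn4a and Scn7a did not pass, and Scn10a, with 4 to 10 reads per sample, was not tested. Of all genes tested, 22.5% were lower at E18. Nalcn, the sodium leak channel that sets resting excitability, had 66.7, 60.4 and 76.7 CPM in E18 replicates 1, 3 and 4 and 203, 161 and 201 CPM in P5 replicates 6, 8 and 9. The ages did not overlap, and the log2 fold change was -1.47 (adjusted p = 0.000181). Scn11a, a sensory neuron channel, had 0.902 ± 0.109 and 4.77 ± 1.501 CPM, with a log2 fold change of -2.40 (adjusted p = 0.000545). Scn7a, which lies 38462 bases beyond Scn9a on chromosome 2, had a log2 fold change of -0.35 (adjusted p = 0.202), and Scn4a, at 3 to 14 reads per sample, one of -0.84 (adjusted p = 0.198).

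Of 10 genes whose products bind or regulate the channel, 5 were lower at E18 (Cntn1, Prrt2, Fgf14, Calm2 and Calm3), 2 were higher (Nedd4l and Nedd4) and 3 (Fgf11, Fgf12 and Fgf13) did not pass. Over all genes tested, 22.5% were lower and 20.8% higher at E18. The median log2 fold change of the 10 genes was -0.54. Cntn1, contactin, an adhesion protein that raises channel density at the surface, had 256 ± 32.4 and 1157 ± 241 CPM, with a log2 fold change of -2.17 (adjusted p = 0.000118), close to that of Scn1a. Prrt2, a membrane protein that restrains Nav1.2 and Nav1.6, had a log2 fold change of -1.38 (adjusted p = 0.000232). Fgf14, an intracellular relative of the fibroblast growth factors that binds the channel's tail, had one of -0.75. Calm2 had one of -0.56. Nedd4l (0.54) and Nedd4 (0.41), ubiquitin ligases that remove channels from the membrane, went the other way.

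Of 11 genes of the initial segment and the node, 5 were lower at E18 (Kcna1, Kcna2, Cntnap1, Kcnq3 and Sptbn4), 3 were higher (Nfasc, Trim46 and Ank3) and 3 (Cntnap2, Kcnab2 and Nrcam) did not pass, with a median log2 fold change of -0.16. For comparison, 22.5% of all genes tested were lower and 20.8% higher. The potassium channel genes Kcna1 and Kcna2 had log2 fold changes of -1.87 and -1.44 (adjusted p = 9.1e-05 and 0.000574). Cntnap1, whose product flanks the node, had 18.9, 18.02 and 23.1 CPM in E18 replicates 1, 3 and 4 and 48.7, 25.9 and 100 CPM in P5 replicates 6, 8 and 9, with a log2 fold change of -1.54 (adjusted p = 0.0153). As in Scn2b, P5 replicate 9 was highest and replicate 8 lowest of its age. Kcnq3, of the M-type potassium channel, had a log2 fold change of -0.88. Of the scaffold genes, Ank3 (ankyrin-G) had 290 ± 7.01 and 235 ± 16.0 CPM and a log2 fold change of 0.30 (adjusted p = 0.0204), Nfasc (neurofascin) one of 0.48 and Trim46, which bundles microtubules there, one of 0.32, whereas Sptbn4, the spectrin that links ankyrin-G to actin, had one of -0.37. Without E18 replicate 3, 3 of the 11 were lower in place of 5, and without E18 replicate 1 or P5 replicate 6, 1 was higher in place of 3.

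Of 4 genes for enzymes that cut the auxiliary subunits, Adam10 and Ncstn were higher at E18 (log2 fold changes 0.50 and 0.33), Psen2 was lower (-0.54), and Bace1 (0.02) did not pass. Among all genes tested, 20.8% were higher and 22.5% lower. Only 1 of the 4 was higher when any 1 sample but P5 replicate 8 was left out. Bace1, the beta-secretase that sheds the auxiliary subunits, had 124 ± 4.44 and 122 ± 11.7 CPM.

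**Figure D4:**
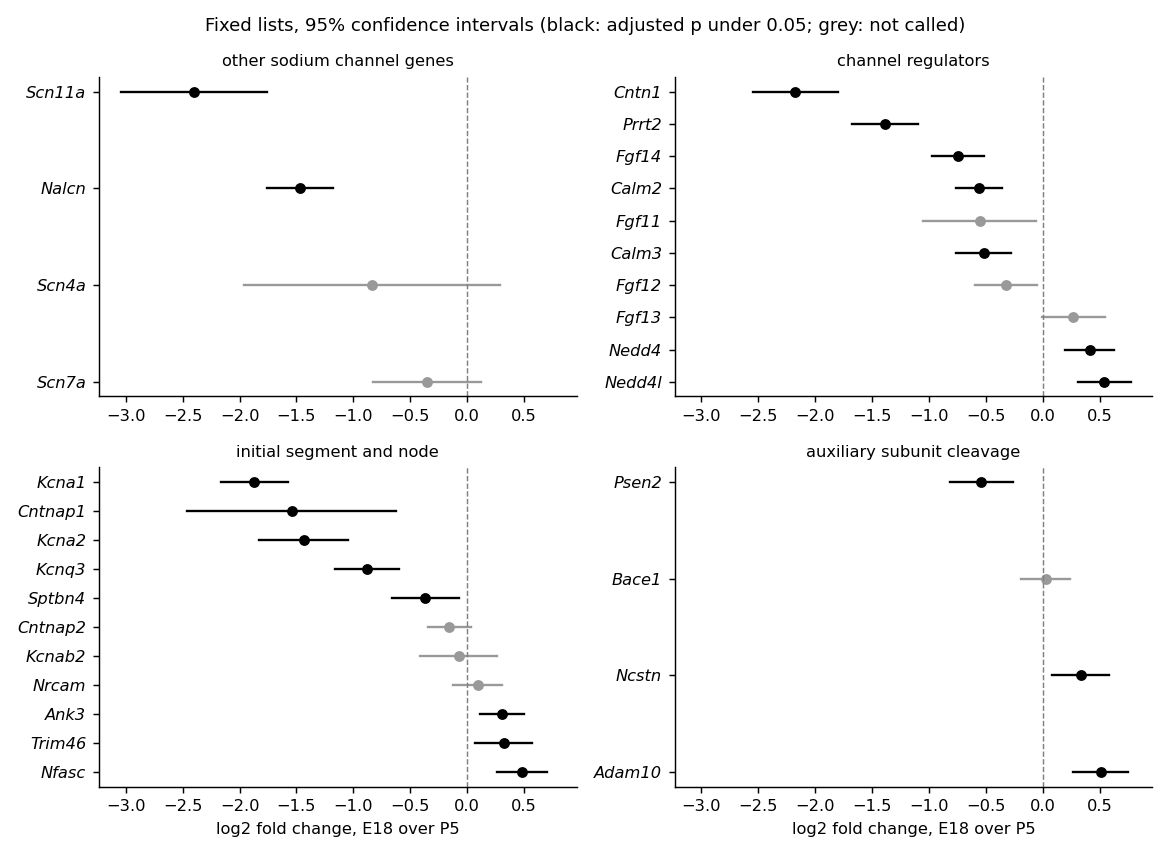
Log2 fold change of E18 over P5 with 95% confidence intervals for the further sodium channel genes, channel regulators, genes of the initial segment and node, and enzymes that cut the auxiliary subunits. Black marks an adjusted p under the threshold of 0.05 and grey one above it. Scn11a, Cntn1 and Kcna1 lie farthest to the left, and Nedd4l, Adam10 and Nfasc farthest to the right.

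The genes whose pattern over the 6 samples was most like that of Scn9a were Zfp57 (Pearson's r of log2(CPM + 1) 0.998), Mog (0.997) and Dedd (0.997), of 9724 genes averaging 10 CPM or more, of which 170 had an r above 0.98. Zfp57 had 208 ± 14.3 and 116 ± 22.4 CPM at the earlier and later age, and Mog had 21.0 ± 2.26 and 8.64 ± 1.80. Zfp57 (37001163 to 37010635) and Mog (37010743 to 37023398) lie 107 bases apart on chromosome 17, on opposite strands with their 3′ ends toward each other. Mog is also a marker of oligodendrocytes. Of the other markers of that lineage, Mbp had 46.0 ± 1.80 CPM at E18 and 35.2 ± 10.7 at P5 and was not called. Pdgfra, at 3.04 ± 0.174 and 2.32 ± 0.338 CPM, was not called either. Olig1 was called lower at E18 and stayed under 1 CPM, and Olig2 reached at most 1.22 CPM, in E18 replicate 1. The part of such cells in the likeness was not tested. For Scn4b, the subunit with the lowest log2 fold change, they were Nomo1 (0.995), Vat1l (0.995) and Syne1 (0.994), among 9725 genes, of which 75 had an r above 0.98. These 6 points fall into 2 age groups and are a description only.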

How the data were processed

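RNA from RGCs of 3 E18 and 3 P5 samples was read as paired ends from libraries depleted of ribosomal RNA (GEO lists polyA RNA). Alignment to mm10 by STAR and counting on RefSeq genes by HT-seq gave the raw counts the authors deposited. The strand setting and the treatment of reads that match several genes are not given in the sources used here, so counts of similar pore subunit genes are uncertain. The deposited normalized counts, a signal scaled by the authors, and the authors' log2 fold changes and p-values with false discovery rates for E18 over P5 were not used, nor was their rank.

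Samples were grouped by the age in their labels. Ages were compared in edgeR 4.0.16 (R 4.3.3), with TMM factors and a quasi-likelihood F-test, after the package's expression filter kept 16449 of 24060 genes. CPM uses TMM library sizes. The standard error is the log2 fold change divided by the root of the F statistic. In a simulation of this comparison (16293 genes, 200 of them altered 2-fold) 132 were recovered and 6 calls were false. In the data a far larger part of the genes was called (43.4%), so these figures do not give its recovery or error rate. Depth was 81213639 to 114512853 counts per sample. Replicates differed beyond counting noise (chi-square 30.5 to 141 per degree of freedom), so the spread between samples sets the precision. Shares and ratios used total exon length in GENCODE M21 and exact permutation tests over samples (scipy 1.17.1).

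The members and gene lists were chosen with earlier results of these data known. The genes named are the 8 subunits, 5 further sodium channel genes and, from each of 3 lists of partners, those past the threshold by 2-fold or more and the next 2 with the largest and the smallest log2 fold change, with the 3 genes most like the subunits of highest and lowest log2 fold change. The other list genes (Ank3, Calm3, Cntnap2, Fgf11, Fgf12, Fgf13, Kcnab2 and Nrcam) and the marker genes are named after their values were seen. Some genes of the lists are not reported here and were left out of the counts, sums and shares, so the shares of auxiliary subunits have a narrower sum than planned. Alternatives were a DESeq2 1.42.0 fit, the exact test in edgeR, other normalizations, filters and gene lengths, and leaving out single samples.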

Additional observations from a re-analysis of the deposited data

How the results depend on the processing

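No paired analysis was possible because the ages share no replicate numbers. Of the 8 subunits, the same 7 kept their call and direction in each alternative that tested them (DESeq2, edgeR's exact test, upper-quartile normalization, library size only, no filter and the omission of each sample), and Scn3b was called in none. With a filter of 1 CPM in 3 samples Scn4b was not tested, and 6 of 7 were called. Leaving out 1 sample gave log2 fold changes of -2.25 to -1.99 for Scn1a, -1.57 to -0.91 for Scn2b and -3.31 to -2.51 for Scn4b. The small difference in the share of Scn8a (-0.161 points) changed sign without P5 replicate 9, to 0.0573 points, over a range of -0.498 to 0.0573. With single samples left out, genes of the initial segment and node numbered 3 to 5 lower and 1 to 2 higher at E18, and enzymes of auxiliary subunit cleavage numbered 1 to 2 higher. Over all genes, 7135 were called, with 4575 to 8796 after leaving out 1 sample (lowest without E18 replicate 3). With the longest transcript as length, differences in share kept their sign, with that of Scn2b at -7.18 in place of -8.78 points, Scn3b at 7.28 in place of 8.89 and Scn9a at 16.8 in place of 17.2. With 3 samples against 3, no exact permutation test can fall under 0.1, and at 4 to 9 reads the E18 level of Scn4b is limited by depth.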
